A study of Danio rerio with 16 samples.

Results

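The adult head of zebrafish was compared with whole larvae at 5 days, gene by gene, on the 32313 gene IDs that the files of both libraries list. These 2 libraries were chosen by their labels from the 16 sample records of the series, with no use of measured values. The head sample is labelled as the entire head of an adult, and the larval sample as whole larvae. Both were wild-type fish of the AB strain, with no allele, transgene or treatment named in the labels. The age, sex and number of the fish, and whether fish were pooled, are not stated in the labels used here. For both, total RNA was extracted with TRIzol and made into TruSeq libraries. The adult tail and a pool of embryos labelled 16-36 hpf (hours post fertilization), both also wild-type AB, have 1 library each on the same annotation, and their values are set beside some genes.

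At 5 days a zebrafish larva swims and sees, and its eye, jaw, axial muscle, liver and pancreas work, but most organs go on growing for weeks. The lens, the rods of the retina, the thymus, the pituitary and the stratified skin are built up further after this stage, and many proteins exist as separate larval and adult forms encoded by neighbouring genes, as in the globin and myosin clusters. The head holds the brain, the eyes, the pituitary, the nose, the inner ear, the gills, the jaw and, beside the gills, the thymus, while liver, pancreas, gut, kidney trunk and gonads lie behind it. The comparison therefore spans both age and body part, and these cannot be told apart with these libraries. In such bulk RNA, fewer cells of a type and less RNA per cell cannot be told apart either.

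Reads counted on genes came to 8017208 in the head library and 8532429 in the larval library, and 23881 and 23170 gene IDs had at least 1 count. Values are read counts per gene scaled to a common library size with the trimmed mean of M values (CPM). With 1 library a side there is no replicate check, no test was possible and no p-value is given. Each ratio of head over larvae is given with an exact 95% interval that covers counting error only, and a gene is called higher or lower where the ratio reaches 4-fold and its mean over both libraries is at least 2 CPM. A gene with 0 counts is set at 3 counts, which is 0.378 CPM in the head and 0.348 CPM in larvae. Its ratio, written with "at least", is then a bound by this convention only. The near end of its exact counting interval lies closer to equal levels than that bound. As a measure of how far libraries of 1 group can lie apart, 0.29% to 1% of genes were 4-fold apart between pairs of the 3 samples of 24 hpf embryos in the series, which are more deeply sequenced and were counted on another annotation.

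Of 18344 genes that passed the minimum level, 1235 were called higher in the head (6.73%) and 852 lower (4.64%), while 70.9% lay within 2-fold. The other 13969 IDs were under the minimum and are in neither count. The ratio exceeded 100-fold for 68 genes on the side of the head and for 46 on the side of the larvae. The genes of highest CPM in the head were the mitochondrial cytochrome oxidase gene mt-co1 (18869.8 CPM in the head, 11951 in larvae), the skin keratin gene krt5 (18209 and 4136) and the yolk precursor gene vtg1 (12567 and 6.03). In larvae they were the muscle actin gene actc1b (4367 CPM in the head, 24047 in larvae), the skin keratin gene krt4 (4887 and 14381) and mt-co1. Behind mt-co1, the head list thus held a skin and a yolk gene, while a muscle and a skin gene stood above mt-co1 in larvae.

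**Figure D1:**
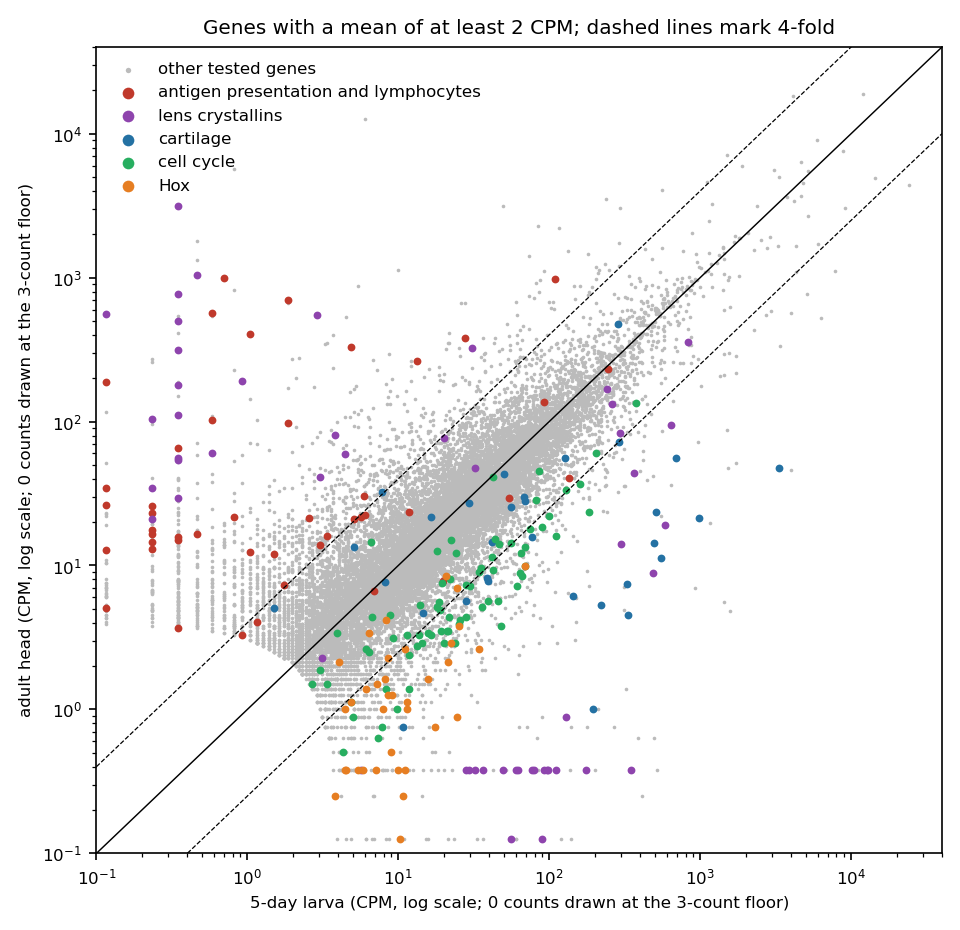
Level of each of 18344 genes in the adult head (vertical, CPM, log scale) against 5-day larvae (horizontal, CPM, log scale), with 5 gene lists coloured and other genes in grey; the solid line marks equal levels, the dashed lines 4-fold, and 0 counts are drawn at the 3-count floor. Genes of antigen presentation and lymphocytes lie above the upper dashed line for the most part, and genes of cartilage, the cell cycle and the Hox clusters below the lower one, while crystallins lie on both sides.

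The 12 genes with the highest ratios, ranked by the end of the interval nearest 1, belong to 3 groups. Lens crystallins make up 6 of them, crygs1, crygm6, crybb2, crybb3, crygm3 and cryaba. Vitellogenins, the precursors of egg yolk proteins, make up 4 (vtg1, vtg2, vtg4 and vtg5), and the globins hbaa1 and ba1 make up the rest. The 12 genes with the lowest ratios were of 5 kinds: the crystallins crygm2d7, crygm2d8, crygm2d11, crygm2d13 and crygm2d14, the globins hbae3 and hbbe1.1, the fin fold genes and2 and and3, the muscle genes myhz1.2 and tnni2a.4, and the larval skin keratin gene cyt1l. Crystallins and globins thus stand at both ends of the ranking, each family with different members.

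The label of the head was checked against markers of organs that a head holds or lacks. Summed over its list, each organ of the head was higher in the head library: brain markers at 4956 CPM in the head and 893 in larvae, retina at 6935 and 2084, pituitary at 114 and 13.6, lens at 482 and 154, and the 2 olfactory markers at 4.41 and 2.32. Summed marker levels of liver, pancreas, islets, intestine and kidney were lower in the head, and none of these markers was at 0 there. The 5 liver markers summed to 2276 CPM in the head and 4009 in larvae, the 7 exocrine pancreas markers to 473 and 2304, the 4 intestine markers to 129 and 759, and the 3 islet markers to 3.53 and 19.8. In the adult tail the same sums were 5400, 7827, 948 and 24.5 CPM, so liver and pancreas transcripts stood in the head, larval and tail libraries alike. Single markers did not all follow their sums: of the liver markers zgc:193613 (apoa2) was at 434 CPM in the head and 2267 in larvae, while tfa was at 1120.1 and 1126, fga at 271 and 304, fgb at 209 and 188 and fabp10a at 241 and 124. The kidney marker slc20a1a was at 46 CPM in the head and 32.9 in larvae. Among the brain markers, elavl3 went against its sum, at 108 CPM in the head and 298 in larvae. Of 5 genes listed as gonad markers, 3 had no count in the head, among them vasa and zp2, and gdf9 had 2 counts. The remaining one, vtg2, a yolk precursor gene of the liver rather than a gonad gene, had 5649 CPM. Where this trunk-organ RNA in the head library comes from was not tested.

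**Figure D2:**
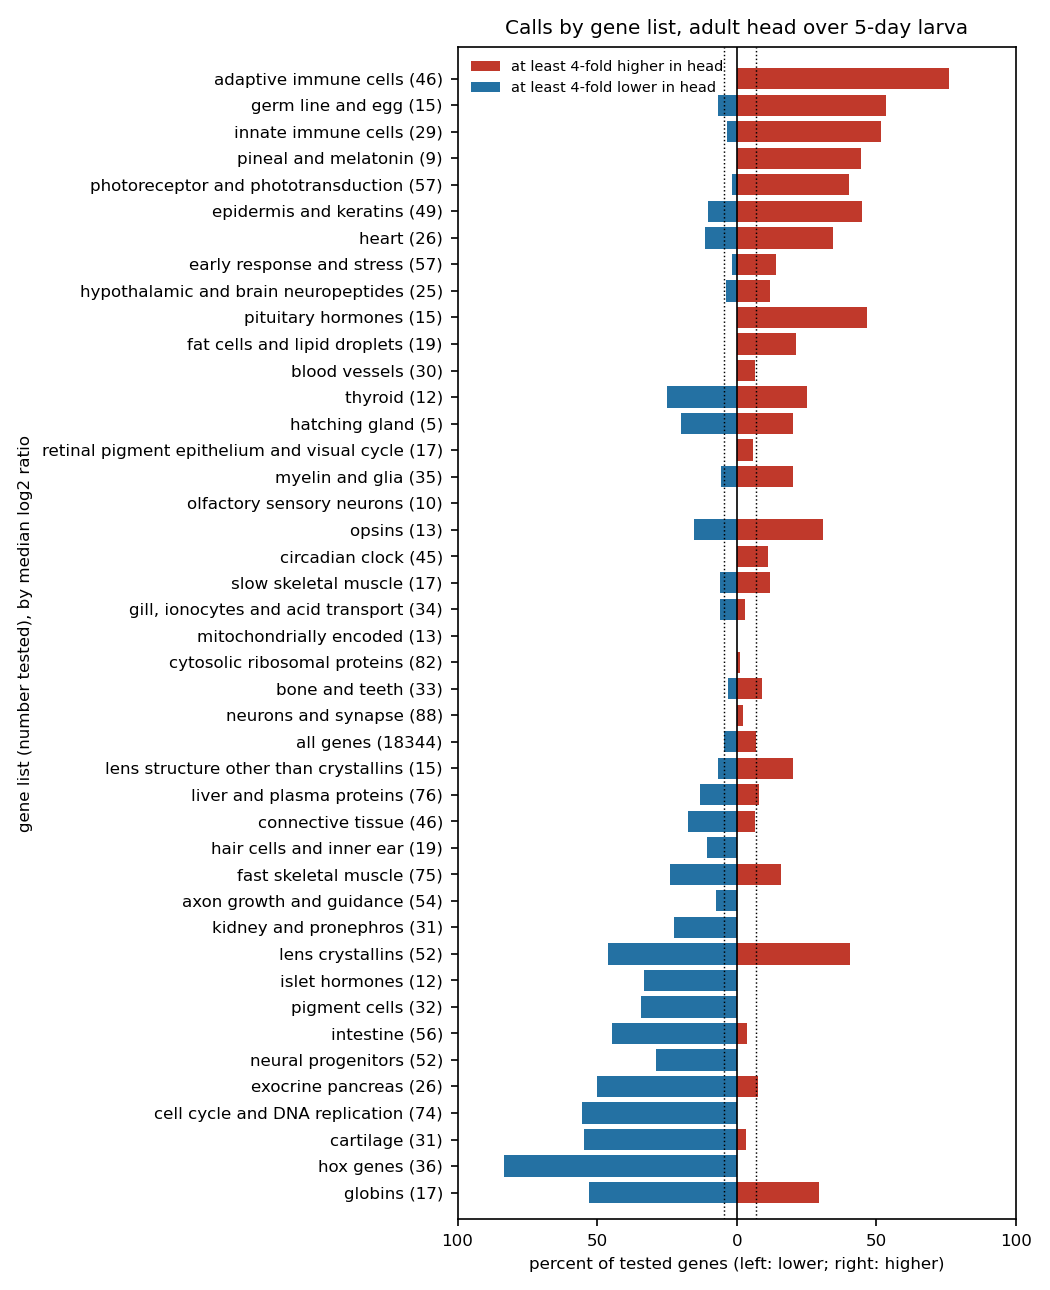
Percent of the tested genes of each list that were at least 4-fold higher in the adult head (bars to the right) or at least 4-fold lower (bars to the left) against 5-day larvae, with the number tested in brackets and lists ordered by their median ratio; dotted lines mark the percent over all genes. Adaptive immune cells stand at the top with 76.1% higher, and globins, Hox genes and cartilage at the bottom.

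In the eye, most rod genes were higher in the adult head, cone genes differed less, and the cone opsins were split. Opsins are the light-sensing receptors, and each photoreceptor type uses its own. The rod opsin gene rho (ENSDARG00000002193, Zv9 chromosome 8, 55706884 to 55708411) was at 4583 CPM in the head and 1109 in larvae, a ratio of 4.13 (counting interval 4.04 to 4.23). The ultraviolet opsin gene opn1sw1 was at 296 CPM in the head and 1447 in larvae, which is 4.89-fold lower (4.68 to 5.11). The blue opsin gene opn1sw2 was at 260.3 and 404 CPM, under 4-fold. The rod opsin thus stood higher and the ultraviolet opsin lower in the head, with the blue opsin between them.

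Zebrafish have tandem copies of green and red opsins, and their copies did not all go one way. The green opsin gene listed as opn1mw1, which the table of gene names calls opn1mw2, was at 62.8 CPM in the head and 416 in larvae. The copies opn1mw3 and opn1mw4 were at 25.1 and 40.6 CPM in the head, each with 0 counts in larvae, so at least 72.2-fold and 117-fold higher. The red opsin gene opn1lw1 was at 116 CPM in the head and 5.1 in larvae, while its neighbour opn1lw2 was at 186 and 548. Within the green array, then, one copy was lower in the head and others higher, and within the red array opn1lw1 was higher while opn1lw2 was lower by less than 4-fold.

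These copies are close in sequence, and the deposited values differ in how they split reads between them. The ID listed as opn1mw2 had 0 counts in both libraries but 72.1 FPKM in the head and 4.76 in larvae (FPKM, fragments per transcript length and library size, set by the authors with Cufflinks). Its annotated span (Zv9 chromosome 6, 41117183 to 41120324) overlaps that of the ID listed as opn1mw1 (41112732 to 41120321). Reads in the shared stretch were thus counted for neither or for one. For opn1lw1 the FPKM were 94 in the head and 79.2 in larvae, a ratio near 1 that the counts do not share. For opn1mw3, opn1mw4 and opn1lw2 both scales had the same direction. On the per-length FPKM scale the visual opsins of the head ran from rho at 1937, through opn1sw1 at 157 and opn1sw2 at 148, to opn1mw3 at 19.95. In larvae opn1sw1 stood first at 804 FPKM, then rho at 463 and opn1lw2 at 344.

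Opsins outside the image-forming photoreceptors were low, and none reached a call. The retinal isomerase genes rgra and rgrb were at 30.1 and 31.2 CPM in the head and at 27.9 and 24.6 in larvae. The peropsin gene rrh was at 10.6 CPM in the head and 5.56 in larvae, opn3 at 6.31 and 4.29, and valopb, a vertebrate ancient opsin, at 3.78 and 1.27. For rrh the ratio was 1.9 (1.32 to 2.77) and for valopb 2.97 (1.45 to 6.56), higher in the head by less than 4-fold. The melanopsin gene opn4a (1.89 and 1.85 CPM), valopa (2.14 and 1.51), opn5 (1.26 and 1.27) and tmtopsb (1.26 and 1.27) stayed under the minimum level, and so did tmtopsa and the 3 IDs of clone names that the table of gene names calls opn4xa, opn7a and opn8a, with at most 3 counts each.

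Behind the opsins, the transduction chain of rods moved with rho. Of 57 photoreceptor genes, 23 were higher and 1 lower, with a median log2 ratio of 1.46 beside -0.03 over all genes. Split by cell type after the values had been seen, 13 of 19 rod genes and 5 of 20 cone genes were higher, with medians of 2.96 and 0.98. The rod transducin gene gnat1 was at 968 CPM in the head and 87.4 in larvae (11.1-fold, 10.3 to 12), and the rod transducin gamma gene gngt1 at 398 and 61.5. Its effector, the rod phosphodiesterase, had all 3 subunits higher: pde6a at 205 CPM in the head and 14.8 in larvae, pde6b at 325 and 25.3, and pde6g at 381 and 36.6. In cones the matching genes differed less, with gnat2 at 666 CPM in the head and 559 in larvae and pde6c at 718 and 328. An exception was the cone inhibitory subunit gene pde6h, at 1747 CPM in the head and 291 in larvae, and the 1 lower gene was gnb3a, a transducin beta subunit, at 14.1 and 70.9. In the pigment epithelium, which regenerates the chromophore, 1 of 17 genes was called higher (5.88%, near the 6.73% over all genes). This was the chloride channel gene BEST1 (9.46 and 1.85 CPM), and the isomerase gene rpe65a was at 194 and 116.

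**Figure D3:**
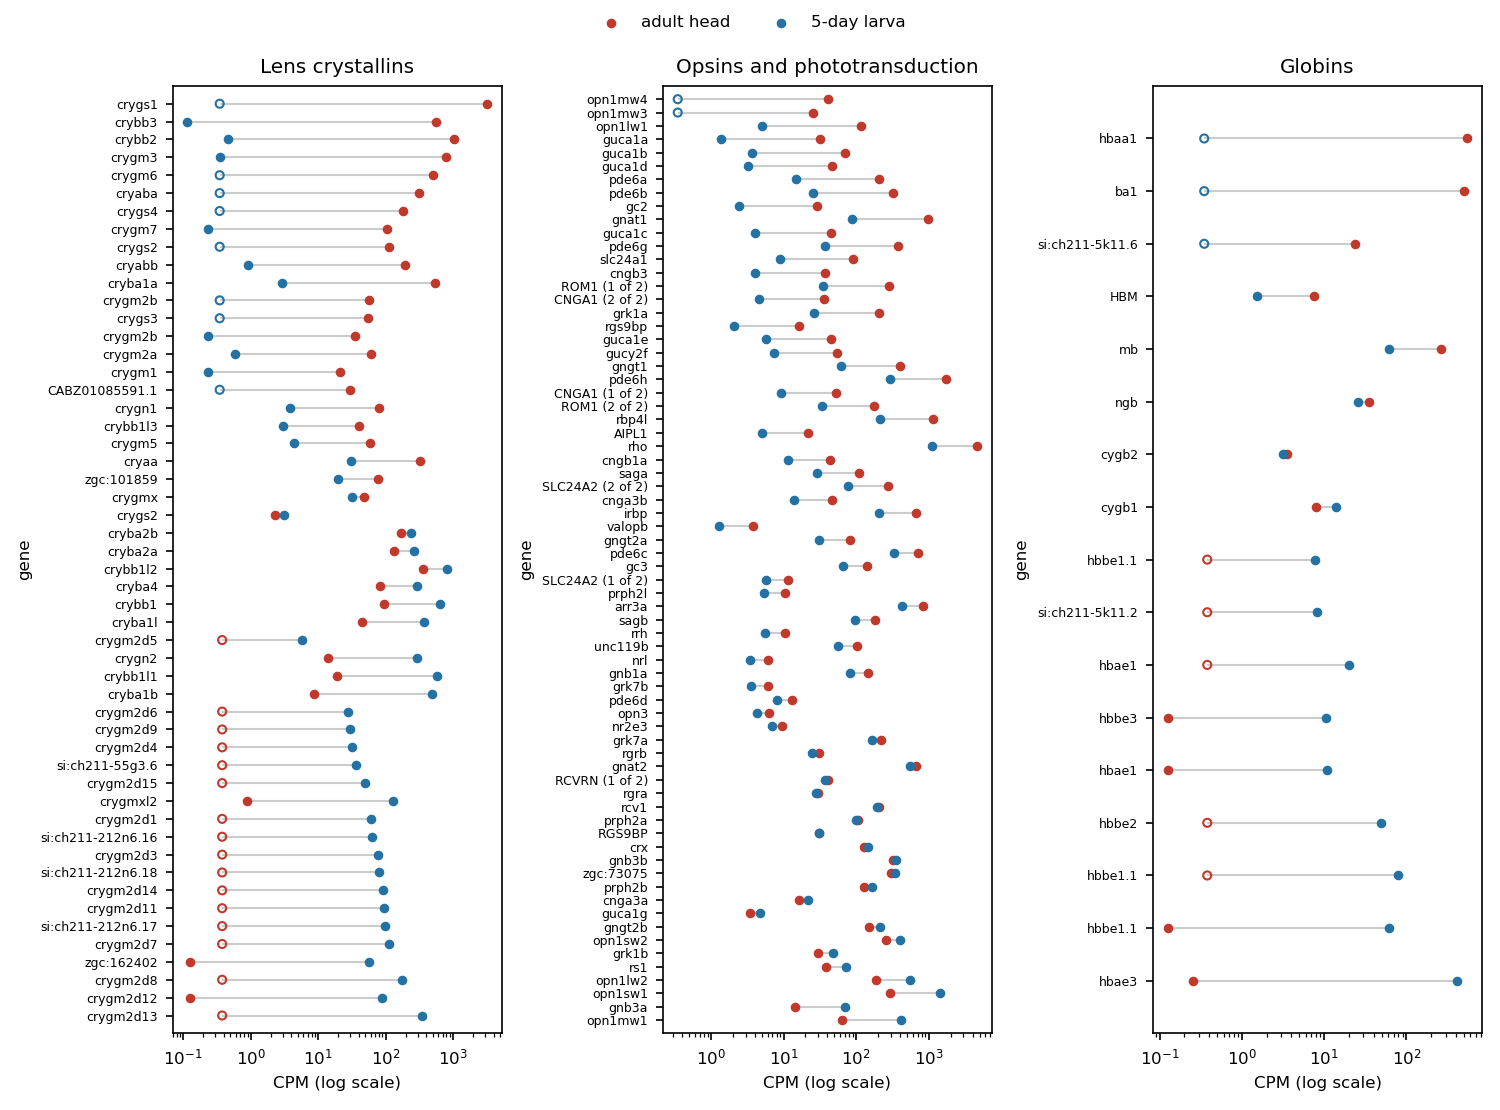
CPM (log scale) of each tested gene in the adult head (red) and 5-day larvae (blue) for lens crystallins, opsins with phototransduction genes, and globins, ordered by ratio; open circles are 0 counts drawn at the 3-count floor, and filled points to their left are libraries with 1 or 2 counts. Many crystallins and globins are seen almost wholly in one of the libraries, others in both, while most photoreceptor genes are seen in both with the head at the higher level.

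Lens crystallins differed in both directions, and largely by class. Crystallins are the dense, stable proteins that give the lens its refractive power, and fish lenses are rich in the gammaM class. Of 52 tested crystallin genes, 21 were higher in the head (40.4%, beside 6.73% over all genes) and 24 lower (46.2%, beside 4.64%), and the classes differed. Of the 21, 13 had at most 3 counts in larvae, and of the 24, 18 had at most 3 in the head. Such genes passed the minimum level only through the library where they were high, which raises the shares called. All 18 genes of the gammaM2d cluster were lower, and 16 of them had no count in the head. The highest of them in larvae, crygm2d13 (ENSDARG00000057460, Zv9 chromosome 9, 23124505 to 23125670), was at 0 CPM in the head and 347 in larvae, at least 916-fold lower. Summed over the cluster this was 0.252 CPM in the head and 1523 in larvae. By contrast, 9 of 11 other gammaM genes were higher and 1 lower: crygm6 was at 499 CPM in the head and 0 in larvae, and crygm3 at 774 and 0.348, while crygmxl2 was at 0.883 and 129.

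The gammaS gene crygs1 (ENSDARG00000042992, Zv9 chromosome 22, 11820663 to 11824256) held the largest bound of all genes, at 3139 CPM in the head and 0 in larvae. With larvae set at 3 counts it was at least 9027-fold higher, and its counting interval began at 7340-fold. It had no count in the adult tail or the embryo pool either. Of 7 gammaS and gammaN genes 5 were higher and 1, crygn2, lower (14 CPM in the head, 297 in larvae). The 3 alpha crystallins, which also act as chaperones, were all higher, with cryaa at 326 CPM in the head and 30.6 in larvae, cryaba at 313 and 0, and cryabb at 191 and 0.927. Of 13 beta crystallins, 4 were higher and 4 lower. Among them crybb2 was at 1042 CPM in the head and 0.464 in larvae, and crybb3 at 559 and 0.116 (1 count), whereas crybb1 was at 95.2 and 642 and crybb1l1 at 19.2 and 587. Other lens genes did not follow one side. The filament gene BFSP1 was at 428 CPM in the head and 145 in larvae, the water channel genes mipa and mipb at 156 and 84.1 in the head and at 123 and 223 in larvae, and 3 of 15 were higher and 1 lower. The gammaM2d genes are near copies of each other, so the split of reads within the cluster is uncertain, but their sum does not rest on it except through reads dropped as not unique.

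In the brain, general neuronal genes stood at like levels while a minority of the genes of myelin and glia were higher in the head, some of them by a wide margin. Of 88 tested genes of neurons and synapses, 2 were higher (2.27%) and 0 lower, with a median log2 ratio of -0.00, so fewer were called than over all genes. The vesicle fusion gene snap25a was at 1023 CPM in the head and 340.1 in larvae, and the vesicle priming gene stxbp1a at 325 and 393. The 2 called genes were atp1a3b, a neuronal sodium pump (860.3 and 193 CPM), and pvalb7, a parvalbumin of Purkinje cells (554 and 61). Summed over the list, neuronal transcripts held 11337 CPM in the head and 9307 in larvae, a near-equal share of the RNA.

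Of 35 genes of myelin and glia, 7 were higher and 2 lower, with a median log2 ratio of 0.59. Within that list 3 of 14 myelin genes were higher and 0 lower (median 0.55), and 3 of 15 genes of astroglia and radial glia were higher and 1 lower (median 0.13). The myelin basic protein gene mbp (ENSDARG00000036186, Zv9 chromosome 19, 22298343 to 22316927) was at 1403 CPM in the head and 72.9 in larvae, 19.2-fold higher (17.8 to 20.9), and mpz, the adhesive protein that compacts fish myelin, at 414 and 21.8. The proteolipid gene plp1b was at 212 CPM in the head and 18.7 in larvae, but its partner copy of mbp listed as MBP was at 147 and 97.2. Ependymin (epd), a secreted glycoprotein of the brain coverings and fluid, was at 2275 CPM in the head and 84.6 in larvae, and had 0 counts in the tail. The brain aromatase gene cyp19a1b, which makes estrogen in radial glia of adult fish, was at 227 CPM in the head and 0.811 in larvae, 279.5-fold higher (135 to 696). The glial filament gene gfap and the apolipoprotein gene apoea went the other way, at 44.8 and 112 CPM in the head and 242 and 469.8 in larvae.

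Over a share of their lists, genes of cell division and of neural progenitors were lower in the head. Of 74 genes of the cell cycle and DNA replication, 41 were lower (55.4%) and 0 higher, with a median log2 ratio of -2.11, and for 23 of them the whole counting interval lay beyond 4-fold. The proliferation marker gene MKI67 was at 23.6 CPM in the head and 182 in larvae, the helicase subunit gene mcm2 at 22.2 and 100.1, and the ribonucleotide reductase gene rrm1 at 16.1 and 110.2. Summed, the list held 839 CPM in the head and 3157 in larvae, and 15831 in the adult tail, whose sum was the highest of the 4 libraries. The tail library also held gonad markers, with vasa at 206 CPM, zp2 at 107 and gdf9 at 49.6. How far gonad RNA accounts for the tail sum was not tested. Of 52 neural progenitor genes, 15 were lower (9 with the whole interval beyond 4-fold) and 0 higher, among them the Notch ligand genes dla (2.65 and 53.2 CPM) and dlb (2.9 and 42.1) and the transcription factor gene sox11a (9.21 and 90.8). For genes of axon growth and guidance the called share lay near that over all genes (4.64% lower). Of 54, 4 were lower (7.41%, 1 with the whole interval beyond 4-fold) and 0 higher. By any margin, though, 50 of the 54 stood below larvae, 19 of them by more than 2-fold, with a median log2 ratio of -0.76. The 4 called were the tubulin gene tubb5, the netrin gene ntn1b (5.17 and 23.1 CPM), the guidance receptor gene robo2 (2.77 and 11.2) and 1 of 2 IDs of the ligand gene slit1b (0.883 and 5.1). Progenitor genes that also mark adult brain, such as notch3 (284 CPM in the head, 243 in larvae) and zic1 (83.1 and 66.2), were close in both.

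Hormone genes of the pituitary stood out in the head. Of 11 IDs of hormone subunits, 7 passed the minimum level and all 7 were higher. The enzymes and granins of secretory cells in the same list were not called, which made 7 of 15 over the list. Of the 7 subunits, 3 had at most 3 counts in larvae and so passed the minimum level only through the head, which favours a higher call. The gonadotropin subunit genes were the most unequal: lhb was at 52.6 CPM in the head and 0 in larvae, at least 151-fold higher, and the shared alpha subunit gene cga at 63.7 and 1.39. Growth hormone (gh1) was at 45 CPM in the head and 3.59 in larvae, prolactin (prl) at 18.8 and 1.97, and pomca, the precursor of ACTH and melanotropin, at 46.2 and 7.65. The somatolactin genes smtlb and smtla, a fish relative of growth hormone, were at 22.2 and 3.91 CPM in the head and 0.116 and 0.348 in larvae. The thyrotropin subunit gene tshb, at 2.65 and 0.927 CPM, was under the minimum level. Among processing genes, the carboxypeptidase gene cpe was at 638 CPM in the head and 449.6 in larvae, and pcsk2 at 83.1 and 85.

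Of 25 neuropeptide genes, 3 were higher (12%, beside 6.73% over all genes) and 1 lower (4%, near the 4.64% over all genes). With a minimum of 10 CPM, 8 were tested, and 1 was higher and 0 lower. The appetite peptide gene npy was at 17.7 CPM in the head and 1.97 in larvae, and oxtl, the oxytocin-like peptide of fish, at 14.5 and 2.2. The gene listed as si:ch211-10e2.5 (cbln12 in the table of gene names, a cerebellin) was at 38.7 and 2.78 CPM. The 1 lower gene, the somatostatin gene sst2, was at 0.378 CPM in the head and 10.08 in larvae and also belongs to the islet list. In the pineal list 4 of 9 were higher (44.4%, beside 6.73% over all genes) and 0 lower. One was aanat2, the rate-limiting enzyme of melatonin synthesis in the pineal (25.6 CPM in the head, 3.36 in larvae). The others were aanat1, its copy used mainly in the retina (14.4 and 1.16), ASMT (6.43 and 0.927) and gngt1. The rod gene gngt1 was already counted among the photoreceptor genes. Of 45 clock genes, 5 were higher (11.1%, beside 6.73% over all genes) and 0 lower. These 5 include aanat2 and aanat1, which were already counted in the pineal list. They were led by zgc:77060 (nfil3-6), a transcriptional repressor, at 681 CPM in the head and 60.3 in larvae, and bhlhe41, a repressor of the clock loop, at 219.8 and 37.7. The labels used here do not state the hour at which either sample was taken.

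The nose and ear gave few calls. Of 10 genes of olfactory sensory neurons, 0 were called, and all 279 odorant receptor IDs were under the minimum level, with 19.2 CPM in the head and 13.6 in larvae summed over the family. Of 19 genes of hair cells and the inner ear, 2 were lower (10.5%, beside 4.64% over all genes) and 0 higher. They were the otolith matrix gene otomp (5.04 CPM in the head, 51.2 in larvae) and tmie, a part of the hair cell transduction complex (1.01 and 5.1). Only for 1 of them, otomp, did the whole counting interval lie beyond 4-fold.

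Skeletal muscle genes differed between the libraries by isoform. Summed over 75 fast muscle genes, the head held 54108 CPM and larvae 115049, with 12 genes higher and 18 lower. Myosin heavy chain, the motor of the thick filament, had members far apart in both directions. The larval genes myhz1.1 (ENSDARG00000067990, Zv9 chromosome 5, 33936240 to 33946744) and myhz1.2 were at 46.4 and 4.79 CPM in the head and at 4014 and 1582 in larvae, 86.5-fold (78 to 96.1) and 330.1-fold (240.4 to 467) lower. The genes myhb (ENSDARG00000001993, Zv9 chromosome 6, 40676631 to 40686586), myhc4 and myha were at 3508, 2203 and 351 CPM in the head and at 236, 116 and 21.2 in larvae. In the adult tail myhb was at 32.8 CPM, below larvae, and myhc4 at 3278, so the 2 adult libraries were unlike for myhb. The larval gene myhz1.1 was at 1.43 CPM in the tail.

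Thin-filament and calcium-handling genes had the same kind of split. Of the troponin I genes, which hold contraction off at low calcium, tnni2a.4 was at 5.55 CPM in the head and 1437 in larvae, 259-fold lower (193 to 357), while tnni2a.3 was at 345 and 3.25 and tnni2a.1 at 272 and 53.7. Of the tropomyosin genes, tpma was at 525 CPM in the head and 6308 in larvae and tpm1 at 1083 and 209.9. Of the parvalbumins, which bind calcium for fast relaxation, pvalb1 and pvalb2 were at 572 and 334 CPM in the head and 3976 and 3395 in larvae, but pvalb3 was at 1136 and 9.97, 114-fold higher (92.2 to 143). The calcium pump gene atp2a1 was at 1110.2 CPM in the head and 7821 in larvae, and its copy atp2a1l at 3231 and 1205. Other muscle genes lay closer, such as the creatine kinase gene ckmb at 4566 and 4826 CPM and the titin gene ttnb at 1596 and 2759.

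In slow muscle, the embryonic slow myosin gene smyhc1 was at 36.1 CPM in the head and 643 in larvae, whereas smyhc2 was at 218 and 135. Of 17 genes, 2 were higher (11.8%) and 1 lower (5.88%), beside 6.73% and 4.64% over all genes. For 1 of the 2 higher genes the whole interval lay beyond 4-fold. Myoglobin (mb), the oxygen store of muscle, was at 266 CPM in the head and 61.7 in larvae, a ratio of 4.31 in counts and 3.87 in FPKM. Of 26 heart genes, 9 were higher and 3 lower, of which 5 and 0 had the whole interval beyond 4-fold. Contractile genes were higher, among them the ventricular myosin gene vmhcl (352 CPM in the head, 43.1 in larvae), the cardiac light chain genes myl7 (183 and 23.9) and cmlc1 (114 and 16.7) and the atrial myosin gene myh6 (67.7 and 9.62). In the tail these 4 genes were at 3.37, 4.02, 1.43 and 0.778 CPM. The lower ones were transcription factor genes of heart formation, hand2 (4.67 and 20.1 CPM), gata5 (3.78 and 18.4) and gata6 (3.28 and 15.8), which are also used outside the heart. The heart lies close behind the gills, and whether the head sample held it was not tested.

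**Figure D4:**
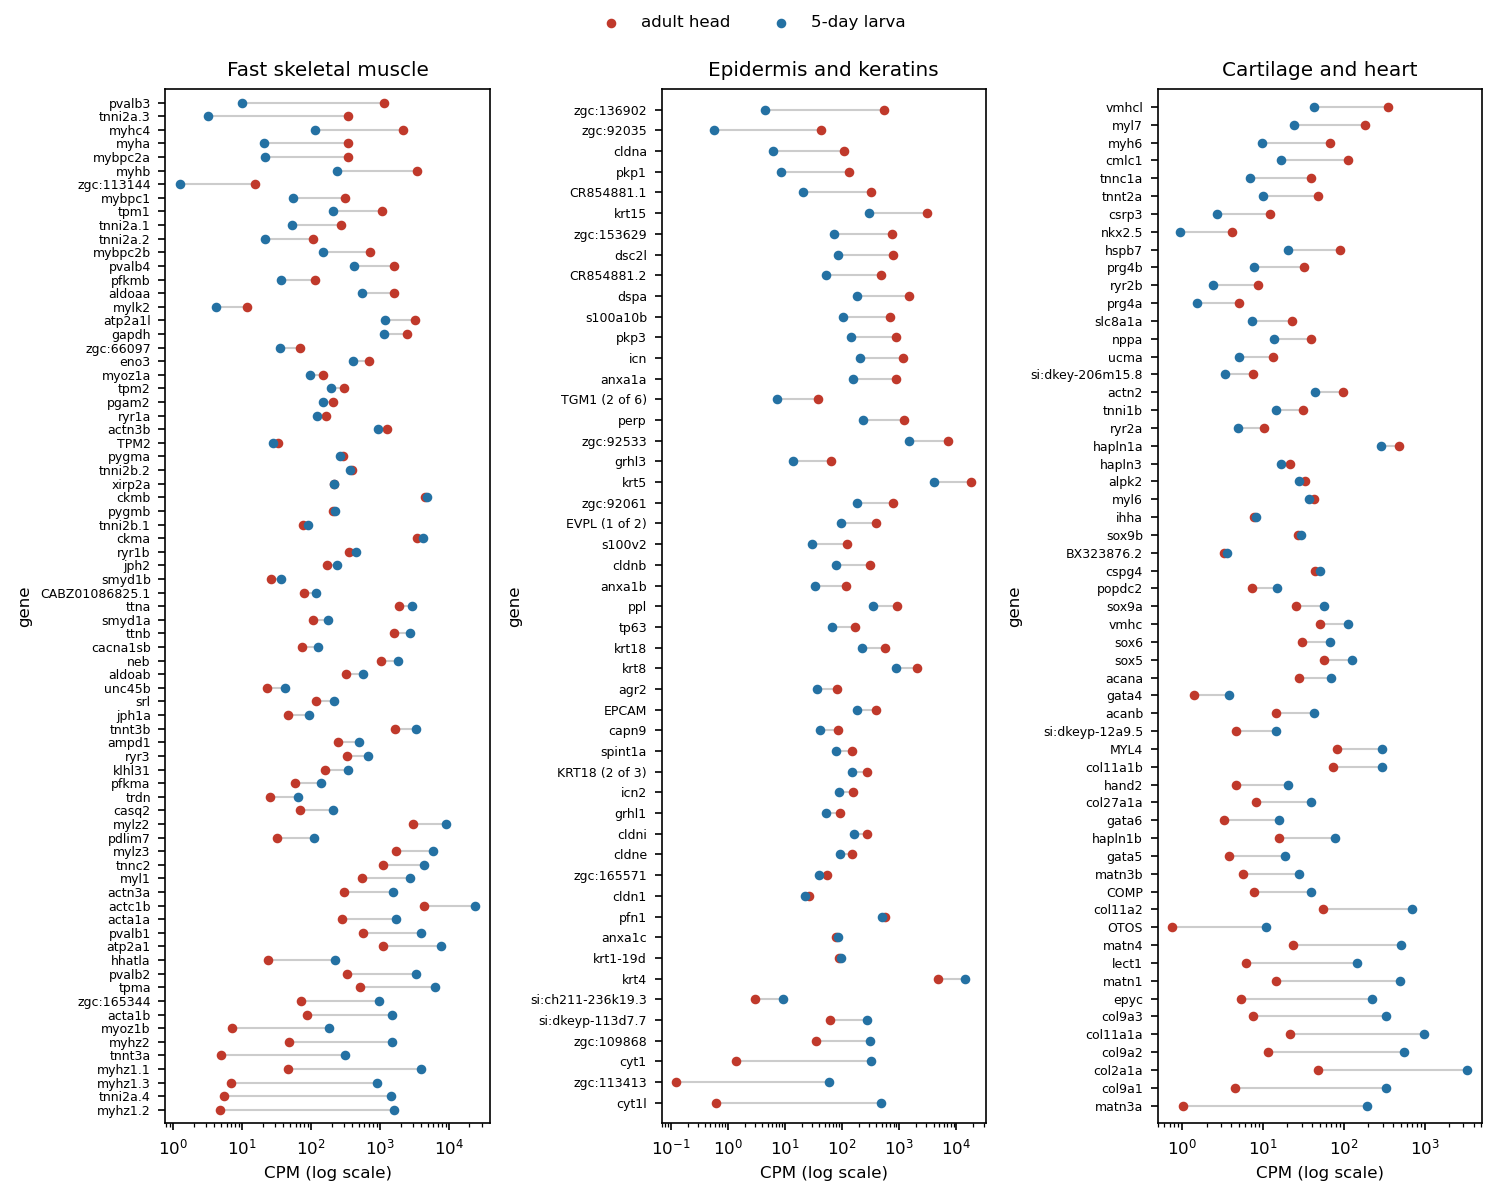
CPM (log scale) of each tested gene in the adult head (red) and 5-day larvae (blue) for fast skeletal muscle, epidermis with keratins, and cartilage with heart, ordered by ratio. Fast muscle runs from pvalb3 and tnni2a.3, higher in the head, to myhz1.2, lower; most epidermal genes are higher in the head and most cartilage genes lower.

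Cartilage genes were mostly lower in the head, while bone genes were not. Cartilage is the larval skeleton of jaw and skull, much of which bone replaces. Of 31 cartilage genes, 17 were lower and 1 higher, with a median log2 ratio of -2.24. The main cartilage collagen gene col2a1a (ENSDARG00000069093, Zv9 chromosome 8, 21733437 to 21757491) was at 47.4 CPM in the head and 3340.1 in larvae, 70.4-fold lower (63.6 to 78.2). The fibril partners col11a1a (21.4 and 982 CPM) and col9a2 (11.4 and 553) and the matrix linkers matn1 (14.3 and 492) and matn3a (1.01 and 194) were lower as well. In the embryo pool, col2a1a was at 3047 CPM, col11a1a at 1316 and col9a2 at 395. Which tissues these transcripts come from, in the pool or in whole larvae, was not tested. The list summed to 1091 CPM in the head, 9055 in larvae, 237 in the adult tail and 8254 in the pool. Whether replacement by bone has a part in the lower levels was not tested. The regulator gene sox9a was under 4-fold at 25.4 CPM in the head and 56.1 in larvae, and the 1 higher gene was prg4b, a lubricant of joint surfaces (32.4 and 7.77).

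Of 33 genes of bone and teeth, 3 were higher and 1 lower, close to the share over all genes. The main bone collagen gene col1a1a was at 1667 CPM in the head and 4284 in larvae, and col10a1 at 238 and 212. The 3 higher genes were mineral regulators. Of these, zgc:111821 (spp1, osteopontin) was at 51.7 CPM in the head and 9.39 in larvae, and the calcification inhibitor gene mgp at 24.7 and 0.58. The secretory phosphoprotein gene scpp7 was at 5.8 and 0.58 CPM. The 1 lower gene, msxb, was at 2.4 CPM in the head and 11.7 in larvae. In connective tissue 3 of 46 genes were higher (6.52%, near the 6.73% over all genes) and 8 lower (17.4%, beside 4.64%). All 4 actinodin genes, which encode the fibres of the fin fold, were lower: and1 was at 7.06 CPM in the head and 314 in larvae, and2 (ENSDARG00000079302, Zv9 chromosome 2, 31480048 to 31484497) at 0 and 514 (at least 1358-fold), and3 at 0.126 and 139, and and4 at 0.126 and 23.5. A head carries no fin fold. In the adult tail and2 was at 0.13 CPM, and whether age or body part lies behind these values was not tested. The elastic fibre genes split, with fbn2b at 9.21 CPM in the head and 178 in larvae, and mfap5 at 27.6 and 1.27.

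Genes of the epidermis were more often higher than lower in the head. Of 49 genes of epidermis and keratins, 22 were higher and 5 lower, and their sum was 50775 CPM in the head and 26662 in larvae. The basal keratin gene krt5 (ENSDARG00000058371, Zv9 chromosome 23, 10280084 to 10284347) was 4.4-fold higher (4.35 to 4.45), at 18209 CPM in the head and 4136 in larvae. The keratin genes krt15 (3028 and 293 CPM) and zgc:92533 (krt91; 7111 and 1497) were higher too. The desmosome genes dspa (1468 CPM in the head, 181 in larvae) and dsc2l (791 and 86), which anchor keratin at cell contacts, were higher with them. Lower in the head were cyt1l (0.631 and 491 CPM) and cyt1 (1.39 and 322), keratins of early skin, zgc:109868 (krt92; 35.6 and 314) and si:dkeyp-113d7.7 (krt17; 61.8 and 276), with the periderm gene zgc:113413 (aep1) as the 1 remaining. In the adult tail these higher genes stood nearer to larvae than to the head, with krt5 at 4099.9 CPM, krt15 at 334, zgc:92533 at 1829.9, dspa at 236 and dsc2l at 72.6, while cyt1l was low there too, at 0.389 CPM. In the embryo pool cyt1l was at 1551 CPM and cyt1 at 945. The surface keratin gene krt4 was under 4-fold.

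Of 32 pigment cell genes, 11 were lower (34.4%; 4 with the whole interval beyond 4-fold) and 0 higher. Melanin synthesis genes were among them, with dct at 29.3 CPM in the head and 122 in larvae, tyr (tyrosinase) at 9.71 and 52.2, and the melanosome transporter gene slc45a2 at 3.41 and 19.6. The genes xdh (5.8 and 30.02 CPM) and aox3 (4.54 and 30.02), used in pteridine pigments of yellow cells, were lower as well. The silver-cell gene pnp4a was under 4-fold at 19.2 and 35.2 CPM.

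Adult globins of red cells were higher in the head, and 9 of 10 tested embryonic globin IDs were lower. Globins carry oxygen in red cells, and zebrafish have an embryonic and an adult set. The adult alpha globin gene hbaa1 (ENSDARG00000079078, Zv9 chromosome 3, 55951716 to 55957631) was at 545 CPM in the head and 0 in larvae, at least 1568-fold higher. The adult beta globin gene ba1 (ENSDARG00000089087, Zv9 chromosome 3, 55950129 to 55955982) was at 498 CPM and 0, and si:ch211-5k11.6 (hbaa2) at 23.6 and 0. The annotated spans of hbaa1 and ba1 overlap, so reads in the shared stretch were counted for neither or for one. The highest of the 9 lower embryonic globin IDs in larvae, hbae3 (ENSDARG00000079305, Zv9 chromosome 3, 55998268 to 55999416), was at 0.252 CPM in the head (2 counts) and 414 in larvae, a ratio of larvae over head of 1641 (counting interval 454 to 13554).

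The 3 IDs named hbbe1.1 were at 0, 0.126 and 0 CPM in the head and at 79.5, 60.5 and 7.77 in larvae, and the 2 IDs named hbae1 at 0 and 0.126 in the head and 19.9 and 10.9 in larvae. For hbbe2 the values were 0 CPM in the head and 49.4 in larvae, for hbbe3 0.126 and 10.4, and for si:ch211-5k11.2 (hbae1.2) 0 and 8.11. These near-identical copies had FPKM between 203 and 381 in larvae where they lie in the cluster on chromosome 3, so the split between copies is not settled by the counts. Summed, these 9 IDs held 0.631 CPM in the head and 660.4 in larvae, and 2853 in the embryo pool. All 9 had at most 3 counts in the head and so passed the minimum level only through larvae, which favours a lower call. Likewise, the 3 adult globin genes at 0 in larvae passed it only through the head. The embryonic globin that went the other way, HBM (hbae4), was higher at 7.57 CPM in the head and 1.51 in larvae, and hbz (hbae5), at 0.126 and 1.16, was under the minimum level. Outside red cells myoglobin was higher, as given above, and 3 globins were under 4-fold, with neuroglobin (ngb) at 35.1 CPM in the head and 25.7 in larvae, cygb1 at 7.95 and 14 and cygb2 at 3.53 and 3.13, while xgb had at most 3 counts and the ID named CYGB (2 of 3) had none.

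Genes of adaptive immunity had the largest share of higher calls of any list. Of 46 tested genes of adaptive immunity, 35 were higher (76.1%) and 0 lower, with a median log2 ratio of 4.52. For 29 of the 35 the whole counting interval lay beyond 4-fold. The list has 63 IDs, and the others were under the minimum level. Of the 35, 15 had at most 3 counts in larvae and so passed the minimum level only through the head, which raises the share of higher calls. Antigen presentation, in which cells display peptides on MHC proteins to T cells, had 19 of 23 higher. The invariant chain genes iclp1 (ENSDARG00000009087, Zv9 chromosome 14, 3122604 to 3136493) and cd74, which escort MHC class II, were at 994 and 571 CPM in the head and 0.695 and 0.58 in larvae, 1429-fold (656 to 3895) and 985-fold (422 to 3034) higher. The class II gene mhc2dab was at 189 CPM in the head and 0.116 in larvae (1 count). For class I, the light chain gene b2m was at 698 CPM in the head and 1.85 in larvae, its relative B2M (2 of 3) at 975 and 109.6, and the heavy chain gene mhc1uba at 405 and 1.04. MHC haplotypes differ between fish of one strain, and the match of these fish to the annotated alleles was not tested.

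Genes of lymphocytes were higher for 16 of 20. The recombinase gene rag1 (ENSDARG00000052122, Zv9 chromosome 25, 9231636 to 9238142), which cuts antigen receptor genes in developing T and B cells, was at 332 CPM in the head and 4.87 in larvae, 68.2-fold higher (50.3 to 94.9), and at 1.43 CPM in the tail. Its partner rag2 was at 12.4 CPM in the head and 1.04 in larvae. The thymus chemokine gene ccl25b and its receptor gene ccr9a, which bring T-cell precursors into the thymus, were at 263 and 97.9 CPM in the head and 13.3 and 1.85 in larvae. T-cell genes such as cd4 (23.2 CPM in the head, 0.232 in larvae), lck (17.5 and 0.232) and zap70 (21.7 and 0.811) were higher, and so was the antibody heavy chain gene ighm, at 65.6 CPM and 0, at least 189-fold. The T-cell factor genes gata3 and tox, which other tissues use too, were under 4-fold at 137 and 40.7 CPM in the head and 91.7 and 135 in larvae.

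Innate immune genes had 15 of 29 higher (8 with the whole interval beyond 4-fold) and 1 lower, with a median log2 ratio of 2.06. The pan-leukocyte gene ptprc (CD45) was at 99.1 CPM in the head and 3.94 in larvae, the leukocyte integrin gene ITGB2 at 75.9 and 9.62, and the macrophage gene mpeg1 at 45.8 and 8.35. Neutrophil genes were nearer, with lyz at 61.7 CPM in the head and 36.2 in larvae and npsn at 39.9 and 15.5, both under 4-fold. The 1 lower gene on the list, cpa5 (47 and 234 CPM), is a digestive carboxypeptidase of the pancreas and no immune gene. Of 30 vessel genes, 2 were higher (6.67%, near the 6.73% over all genes) and 0 lower. The 2 were vwf, the clotting factor stored in endothelium (169 CPM in the head, 5.1 in larvae), and si:dkey-208k22.3 (plvapa, 35.3 and 8.11). The vessel receptor gene kdrl was at 97.6 and 41 CPM and cdh5 at 44.5 and 28.5.

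In the thyroid, which lies along the floor of the throat, products were higher and transcription factors lower. Thyroglobulin (tg), the hormone precursor, was at 233 CPM in the head and 16 in larvae, 14.6-fold higher (12.3 to 17.5), the iodide pump gene slc5a5 at 7.57 and 0.116 (1 count), and dio2, which activates the hormone in its target tissues, at 61.8 and 1.97. The factors pax8 (0.504 and 5.45 CPM), nkx2.1b (0.378 and 4.17) and pax2a (6.68 and 32.1) were lower, and each is also used in brain or kidney. That made 3 higher and 3 lower of 12, though none of the lower ones had the whole interval beyond 4-fold. Of 34 genes of gills, ionocytes and acid transport, 1 was higher (2.94%) and 2 lower (5.88%), beside 6.73% and 4.64% over all genes. In that order they were the sodium-proton exchanger gene slc9a3.2 (19.5 CPM in the head, 4.64 in larvae), the ammonia channel gene rhcgl1 (7.57 and 47.5) and the calcium hormone gene stc1l (0 and 7.88). The carbonic anhydrase gene ca2 was at 371 and 128 CPM.

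In each list of trunk organs, a part of the genes was lower in the head. Of 26 exocrine pancreas genes, 13 were lower and 2 higher, with the trypsin gene try at 139.7 CPM in the head and 658 in larvae. Of 56 intestine genes, 25 were lower and 2 higher. The fatty acid carrier gene fabp2 was at 60.8 CPM in the head and 268 in larvae, the apolipoprotein gene apoa4 at 23.6 and 240.0, and fabp1b.2, a copy that went the other way, at 96.5 and 0.232. Of 31 kidney genes, 7 were lower (2 with the whole interval beyond 4-fold) and 0 higher, including the cadherin gene cdh17 (36.2 and 161 CPM). Summed over all IDs of the list, however, kidney genes held 1593 CPM in the head and 1381 in larvae. Of 12 islet genes 4 were lower, with insulin (ins) at 0.883 CPM in the head and 8.69 in larvae.

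Liver genes were mixed, with 10 of 76 lower (13.2%, beside 4.64% over all genes) and 6 higher (7.89%, near the 6.73% over all genes). Lipoprotein genes were lower: apobl (apobb.1) was at 765 CPM in the head and 5069 in larvae, zgc:193613 (apoa2) at 434 and 2267, and apoa1 at 217 and 1715. Several of these are also made by the yolk layer and gut of larvae. The plasma protein genes hpx, which binds heme, and ahsg, a mineral-binding fetuin, were higher at 201 and 78.7 CPM in the head and 2.09 and 2.9 in larvae. Transferrin (tfa) was even, at 1120.1 and 1126 CPM.

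The vitellogenins are made by the liver of egg-laying females under estrogen. All 7 vtg IDs were higher in the head: vtg1 was at 12567 CPM in the head and 6.03 in larvae, vtg2 (ENSDARG00000055809, Zv9 chromosome 22, 25342159 to 25353294) at 5649 and 0.811, vtg5 at 1809 and 0.464, and vtg4 at 1328 and 0.464. In the tail, vtg1 was at 36392 CPM and vtg2 at 16210.2. The copies vtg7 and vtg3 were at 877 and 541 CPM in the head and 5.45 and 0.58 in larvae, and si:rp71-23d18.1 (vtg6) was called higher too. None of the 5 liver markers given above was called higher in the head. Among true germ-cell genes of the same list, vasa had 0 counts in the head and 2.32 CPM in larvae. The list's only lower gene was no germ-cell gene: cyp17a1, a steroid enzyme of gonad and interrenal gland, was at 0.757 CPM in the head and 10.3 in larvae. With the trunk-organ, yolk and germ-line lists left out, a setting added after seeing the data, genes at least 4-fold higher in head numbered 1217 and genes at least 4-fold lower in head 794.

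Hox genes, which set position along the trunk, were lower nearly throughout. Of 36 tested, 30 were lower (83.3%; 19 with the whole interval beyond 4-fold) and 0 higher, with a median log2 ratio of -3.11. Most of these genes were low: with a minimum of 10 CPM, 8 were tested and 6 called lower, and 10 of the 30 had at most 3 counts in the head. By position in the clusters, 7 of 11 were lower in groups 1 to 4, 9 of 10 in groups 5 to 8, and 14 of 15 in groups 9 to 13. The anterior gene hoxb3a, used in the hindbrain, was at 9.96 CPM in the head and 69.4 in larvae, hoxb8a at 2.65 and 34.2, and the posterior gene hoxc12a at 0 and 11.1. The posterior group summed to 9.33 CPM in the head, 151 in larvae and 33.7 in the tail. Groups 1 to 4 summed to 39.7 CPM in the head and 16.5 in the tail, and groups 5 to 8 to 22.8 and 15.4. The whole list held 71.9 CPM in the head, 505 in larvae and 65.6 in the tail, so low Hox sums were not particular to the head.

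**Figure D5:**
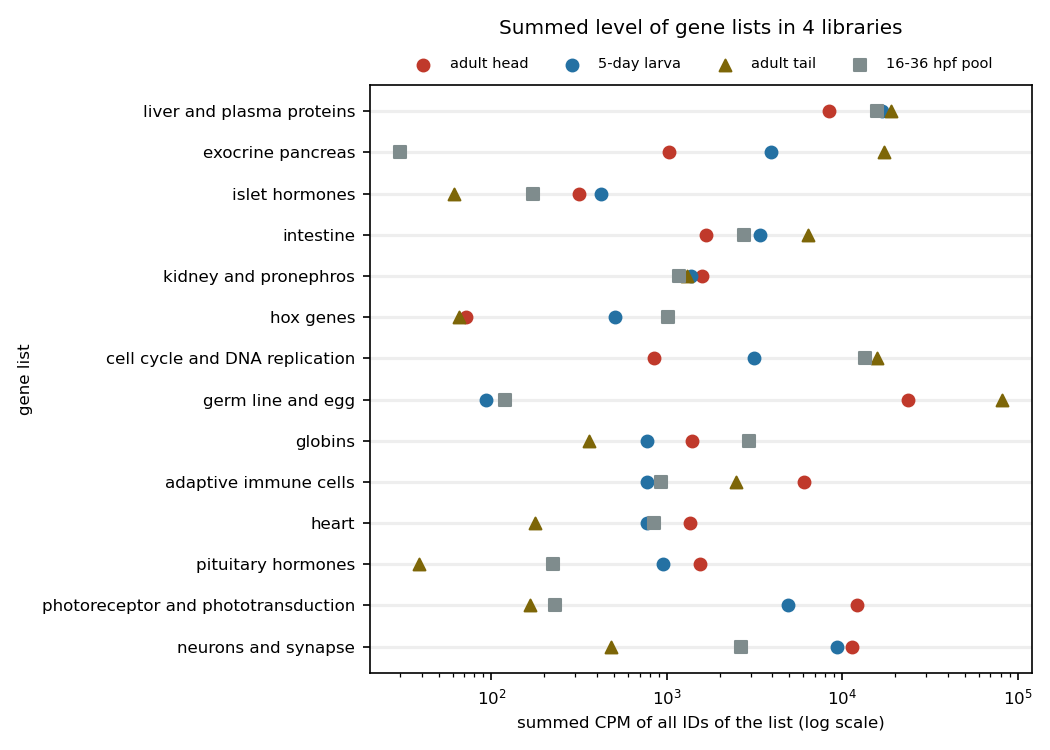
Summed CPM (log scale) of 14 gene lists in the adult head, 5-day larvae, the adult tail and the 16-36 hpf embryo pool, 1 library each. The head has the highest sum for photoreceptors, neurons, pituitary, adaptive immunity, heart and kidney. The tail has the highest sums for liver, exocrine pancreas, intestine, the germ-line list and the cell cycle.

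Housekeeping genes were close. None of the 13 mitochondrially encoded genes was called, with a median log2 ratio of 0.25, and 1 of 82 cytosolic ribosomal protein genes was, rps8b (30.02 CPM in the head, 5.33 in larvae), with a median of 0.20. Of 57 early response and stress genes, 8 were higher and 1 lower, with a median of 1.11 beside -0.03 over all genes. Among the 8 higher were the glucocorticoid-induced genes fkbp5 (1130.5 CPM in the head, 249.7 in larvae) and tsc22d3 (607 and 107). The cytokine feedback gene socs3a (195 and 18.8) and the immediate early gene fosb (118 and 21.8) were higher too. The 1 lower gene, nr4a2a, was at 4.92 CPM in the head and 26.8 in larvae. How long sampling took is not stated in the labels used here, and its part in these values was not tested. Of 19 genes of fat cells, 4 were higher and 0 lower, with the lipolysis inhibitor gene G0S2 at 90.9 CPM in the head and 2.09 in larvae, the desaturase gene scd at 70.5 and 2.67, and the fatty acid synthase gene fasn at 6.18 and 0.58 (10.7-fold in counts and 3.52-fold in FPKM). Of 5 hatching gland genes that passed the minimum level, he1a, a hatching enzyme, was lower (0.126 and 6.95 CPM), and klf4, a factor of hatching gland and skin, higher (64.2 and 8.46).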

How the data were processed

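Per the submitters' processing notes, the authors based the analysis on genome build Zv9 and named Cufflinks 1.3.0, HTSeq 0.5.3p3, Bowtie 0.12.7, TopHat 1.4.1 and CASAVA 1.4, with settings not stated. The authors deposited raw counts per gene from HTSeq and, per the file headers, FPKM values per gene from Cufflinks, 1 table of each per library. The labels used here do not state the annotation release or the strand setting, so overlapping and antisense genes are uncertain. The 5 HTSeq counters, which name no gene, were left out of library sizes. Reads without a unique alignment made up 30.2% of counter and gene totals in the head and 24.9% in larvae, reads on no gene 13.7% and 13.2%, and ambiguous reads 1.08% and 0.849%. Genes with near-identical copies lose reads in this way.

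Counts were scaled with TMM factors (0.989 for the head, 1.01 for larvae; edgeR 4.0.16, R 4.3.3), and intervals of ratios are exact conditional binomial ones (scipy 1.17.1), checked on simulated data. FPKM is used for levels between genes and as an alternative scale. Of the IDs, 20499 matched a table of gene names, and 89 have more than 1 locus, whose FPKM were summed. Coordinates are those of the files, on Zv9. Named genes are the 12 highest and 12 lowest ratios among genes with at least 20 CPM in the higher library and a symbol that is no clone or small-RNA name, up to 4 called members a direction in each list, members added for their role in a list after their values were seen, every opsin and globin, and the 8 genes of highest CPM in each library. Members and gene lists were chosen with earlier results of these data known, and classes within lists were split after the values were seen. Alternatives were library totals, median-of-ratios factors, other minimum levels and thresholds, FPKM, and the 50 highest genes left out.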

Additional observations from a re-analysis of the deposited data

How the results depend on the processing

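The counts of genes at least 4-fold higher in head (1235) and of genes at least 4-fold lower in head (852) stayed within 1.5 times under library totals (1200.0 and 876), median-of-ratios factors (1223 and 859), FPKM with a pseudocount of 0.1 (1026 and 829) and with the 50 highest genes left out (1329 and 888). They moved further with a minimum of 10 CPM (593 and 458 of 11871 genes), with a 2-fold threshold (2923 and 2424), with an 8-fold threshold (615 and 326), where the whole counting interval had to lie beyond 4-fold (771 and 461), with FPKM and a pseudocount of 1 (573 and 424) and, for the higher genes, without a minimum level (1940.0, beside 1107 lower, of 24667). Thresholds and minimum levels change what is counted by construction, and a larger pseudocount shrinks the ratios of low genes. The number of higher genes exceeded the number of lower ones under every setting run. Of 215 named genes with an FPKM value, 176 kept their size and direction on that scale and 39 moved. Their FPKM ratios ended the call of opn1lw1 (1.19) and fasn (3.52), and, from counts just past 4-fold, of prg4b (3.77), slc9a3.2 (3.66), mb (3.87), hspb7 (3.83), thbs4a (3.76), COL5A2 (2 of 2) (3.74), mep1b (3.51), si:dkey-208k22.3 (3.96) and robo2 (3.81-fold lower). Under library totals, median-of-ratios factors and FPKM with a pseudocount of 0.1, the settings run for single genes, no called gene changed its direction; vtg1, vtg4 and vtg5 have no usable FPKM. At the 2-fold threshold the balance turned in the lens structure list (5 higher and 6 lower, against 3 and 1 at 4-fold) and in the gill list (11 higher and 5 lower, against 1 and 2), and at the 8-fold threshold in the liver list (4 higher and 2 lower, against 6 and 10) and the slow muscle list (0 higher and 1 lower, against 2 and 1). No paired analysis was possible because each group has 1 library, and no library could be left out for the same reason. Depth limits genes near the 3-count floor, and every odorant receptor was under the minimum level.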

Other observations

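These values were chosen after all genes had been seen. The hemidesmosome integrin genes itgb4 and itga6b were at 1539 and 912 CPM in the head and 133 and 82.2 in larvae. The cornified-layer crosslinker listed as TGM1 (6 of 6) was at 671 CPM in the head and 1.85 in larvae.

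The RNA-binding protein genes igf2bp1 and igf2bp3 were at 0.631 and 5.93 CPM in the head and 83.1 and 151 in larvae, and igf2bp1 was at 267 CPM in the embryo pool. The chromatin protein genes hmga1a and hmga2 were at 212 and 1.77 CPM in the head and 1443 and 62.4 in larvae. Among these 4, hmga1a had the smallest ratio, at 6.81-fold lower (6.47 to 7.17).

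Of 1164 pairs of genes whose symbols differ only in a final a or b, 37 were called the same way and 4 were called in opposite ways. In these 4, cryba1a was at 546 CPM in the head and 2.9 in larvae and cryba1b at 8.83 and 485. The skin collagen genes col17a1a and col17a1b were at 54.6 and 665 CPM in the head and 303 and 27.8 in larvae. The genes col8a1a and col8a1b were at 0 and 33.4 CPM in the head and 42.2 and 4.87 in larvae, and the annexin genes anxa2a and anxa2b at 611 and 5.93 in the head and 102 and 27.7 in larvae.

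By chromosome, the share of tested genes called higher in the head ran from 4.80% on chromosome 17 to 10.15% on chromosome 3 (94 of 926) and 10.23% on chromosome 22 (62 of 606). The share called lower ran from 2.98% on chromosome 10 to 8.71% on chromosome 9 (62 of 712). Chromosome 3 holds a globin cluster, chromosome 22 the vitellogenins and chromosome 9 the gammaM2d crystallins. How far these clusters account for the shares was not tested. Several genes of high ratio belong to none of the lists: es1 was at 273 CPM in the head and 0.232 in larvae (2 counts), fgfbp2, a binding protein of fibroblast growth factors, at 274 and 1.97, and the nitric oxide synthase gene nos2a at 51.8 and 0.116 (1 count).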
